A study of Homo sapiens with 3 samples.

Results

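The regions described here are 48 windows of 50 nt on the human genome (build GRCh37/hg19). The deposited table annotates them as long non-coding RNA (lncRNA) of the subtype antisense. The name refers to transcripts from the strand opposite to a protein-coding locus, but the labels do not define it. The windows carry the names of 46 genes, and were 48 of 141 lncRNA windows and 48 of 1533 windows in the whole table. They were chosen by this annotation and not by their read numbers, although earlier results of these data were known. Each window had been kept by the authors because RNA from it carried an untemplated oligo(U) tail and was bound by DIS3L2.

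CLIP-seq, in which RNA is crosslinked to a protein by UV light, recovered with the protein and sequenced, was done on HEK293T-Rex cells (HEK293 in the labels), a human embryonic kidney line. The cells overexpressed DIS3L2 D391N, the catalytically inactive mutant, with a C-terminal 3xFlag tag from a stably integrated inducible construct. The 3 replicate libraries formed a single group with no control group, no untreated sample and no second genotype, and nothing in the sources used here says whether the line was 1 clone. Whether markers of the cell line were present could not be checked in a table of selected windows.

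For each window the table gives the number of uniquely mapped reads (unique reads) and how many of them ended in at least 4 untemplated T (uridylated or U+ reads). The U+ fraction is the second number as a percentage of the first. Both numbers had been summed over the 3 libraries, so that the spread between replicates is unknown. Each value has instead a 95% Wilson interval, which covers counting error only. The interval treats reads as independent, so it is too narrow if PCR copies of a molecule were counted. The table held 2686158 unique and 769021 uridylated reads in all.

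DIS3L2 is a 3′ to 5′ exoribonuclease of the cytoplasm that prefers RNAs ending in a run of uridines, which terminal uridylyltransferases add without a template. Most promoters of protein-coding genes in mammalian cells are divergent: RNA polymerase II starts in the gene on one strand and, a short way upstream, on the other strand in the opposite direction. Many annotated antisense lncRNAs begin at such upstream starts, and most of the RNA made there is short and rapidly degraded.

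The stretches of genome printed first show how the windows sit beside coding genes. Each is printed 5′ to 3′ on the strand of the lncRNA, from the first base upstream of the annotated start of the opposite-strand coding gene in lower case to the end of the uridylated window, which is in capitals. They were picked for 1 result each. AC007879.5 (chr2:208394400-208394460, minus strand, beside CREB1) is the closest to a coding start, and THAP7-AS1 (chr22:21356486-21356549, plus strand, beside THAP7) is the next closest. FGD5-AS1 (chr3:14988900-14989089, minus strand, beside NR2C2) and CTD-2588C8.8 (chr19:34919100-34919277, minus strand, beside UBA2) lie near the typical distance. SNAI3-AS1 (chr16:88729546-88729799, plus strand, beside MVD) had many uridylated reads, and RP11-546B15.1 (chr15:42500503-42500649, plus strand, beside VPS39) had the lowest U+ fraction of the set.
AC007879.5: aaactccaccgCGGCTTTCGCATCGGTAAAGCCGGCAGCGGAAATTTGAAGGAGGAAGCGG
THAP7-AS1: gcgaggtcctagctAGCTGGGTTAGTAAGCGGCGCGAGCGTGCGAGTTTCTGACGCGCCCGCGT
FGD5-AS1: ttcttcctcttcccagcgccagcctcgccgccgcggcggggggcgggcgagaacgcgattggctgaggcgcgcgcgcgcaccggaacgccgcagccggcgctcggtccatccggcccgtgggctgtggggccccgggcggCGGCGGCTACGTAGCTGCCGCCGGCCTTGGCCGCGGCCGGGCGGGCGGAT
CTD-2588C8.8: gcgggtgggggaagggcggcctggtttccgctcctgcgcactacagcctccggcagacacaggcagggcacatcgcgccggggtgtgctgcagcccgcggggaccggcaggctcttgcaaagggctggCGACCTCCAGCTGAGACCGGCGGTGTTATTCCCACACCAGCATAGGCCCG
SNAI3-AS1: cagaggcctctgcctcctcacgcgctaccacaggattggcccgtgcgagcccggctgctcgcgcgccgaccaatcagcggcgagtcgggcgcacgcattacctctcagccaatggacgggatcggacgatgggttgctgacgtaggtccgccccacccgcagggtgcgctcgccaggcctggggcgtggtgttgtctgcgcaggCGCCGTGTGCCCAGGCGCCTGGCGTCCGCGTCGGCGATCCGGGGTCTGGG
RP11-546B15.1: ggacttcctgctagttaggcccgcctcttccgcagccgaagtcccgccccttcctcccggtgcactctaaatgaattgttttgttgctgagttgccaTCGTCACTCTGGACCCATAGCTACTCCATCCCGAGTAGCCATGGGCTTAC

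The windows of 3 more genes are printed because they had the most uridylated reads or the highest U+ fractions of those that overlap no coding exon. They are A1BG-AS1 (chr19:58859150-58859199, plus strand), PCAT6 (chr1:202780100-202780149, plus strand) and LIFR-AS1 (chr5:38556950-38556999, plus strand).
A1BG-AS1: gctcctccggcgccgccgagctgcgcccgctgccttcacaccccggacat
PCAT6: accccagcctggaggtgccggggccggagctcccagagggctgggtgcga
LIFR-AS1: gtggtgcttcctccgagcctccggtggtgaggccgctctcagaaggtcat

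Together the antisense windows held 5618 unique and 3604 uridylated reads, giving a pooled U+ fraction of 64.2% (95% interval 62.9 to 65.4). These were 19.4% of the uridylated reads of all lncRNA windows and 0.469% of those of the whole table. The median U+ fraction of a window was 66.6%, with quartiles of 56.1 and 77.1% and a range of 25.5 to 95.2%. The median window held 73.5 unique and 44 uridylated reads, and the unique reads ran from 17 to 590. Over all 1533 windows of the table the median U+ fraction was 70.2%, with quartiles of 56.6 and 80.5%, so the quartiles were similar. Of the 48 antisense windows, 15 had a U+ fraction of 75% or more, 26 lay between 50 and 75%, and 7 lay under 50%. A few windows carried most of the signal, since the 10 with the most uridylated reads held 55.3% of them.

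Counting error was large for many members. The interval of a window was 20.5 percentage points wide at the median and ran from 5.43 to 39.0 points, and 19 windows had under 50 unique reads. The lower limit of the interval exceeded 50% in 30 of the 48 windows (62.5%), against 67.3% over all windows of the table. The share of mostly uridylated windows was thus near that of the whole table. The lower limit exceeded 25% in 46, a count largely set in advance, since the authors used this uridylation frequency to keep windows. It lay below 25% in RP11-546B15.1 (15.8%) and AC009005.2 (22.9%), which are listed all the same.

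**Figure D1:**
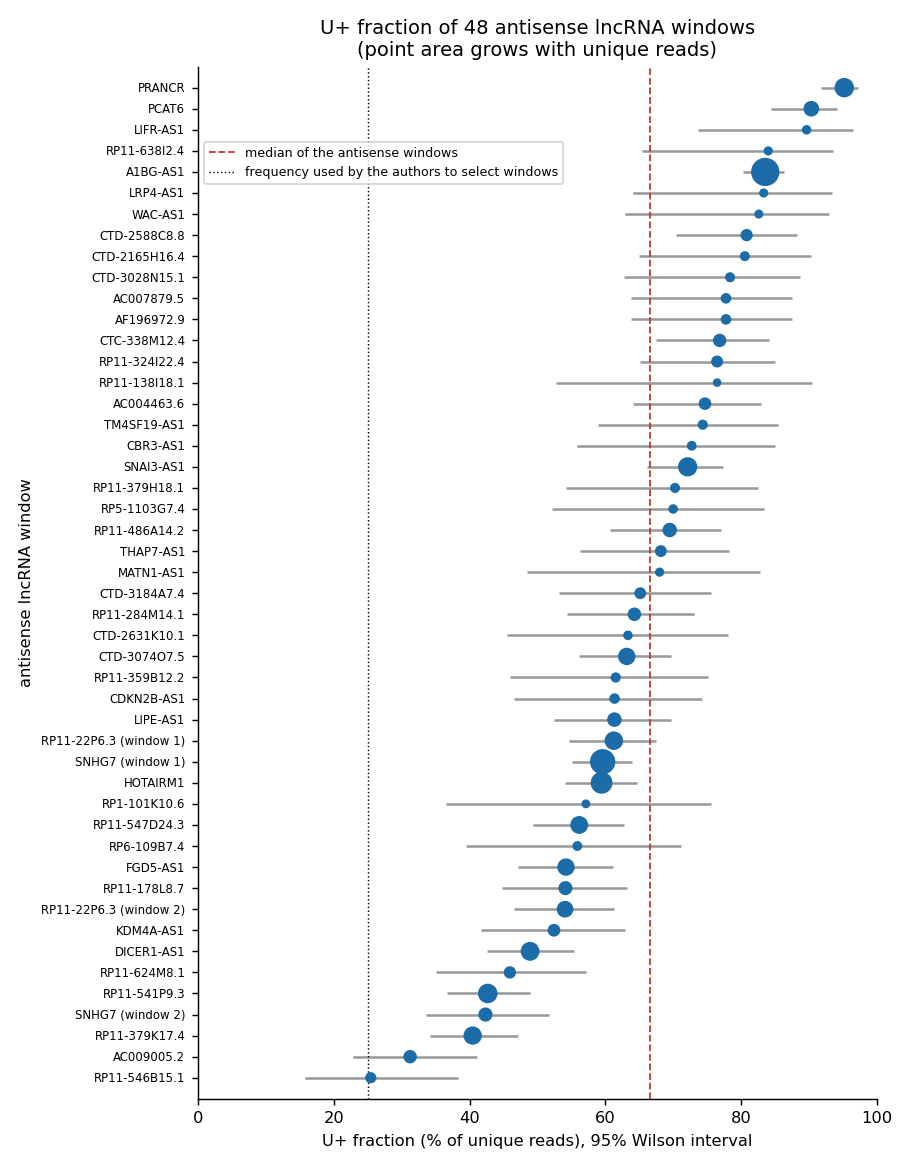
U+ fraction of each of the 48 antisense lncRNA windows (x axis, percent of unique reads), ordered from highest to lowest, with 95% Wilson intervals as grey lines and point area growing with unique reads. The windows run from 95.2% (PRANCR) to 25.5% (RP11-546B15.1) around a median of 66.6% (dashed line). The dotted line marks 25%, and window 1 of a gene is the one with more unique reads.

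The window of A1BG-AS1, antisense to the gene of the plasma glycoprotein A1BG, had the most reads. It held 590 unique reads, 493 of them uridylated, a U+ fraction of 83.6% (80.4 to 86.3), and 13.7% of all uridylated reads of the antisense windows. It lay at the start of its own transcript, with a midpoint 20 nt past it, but the nearest opposite-strand coding start was 5320 nt away. Without this window the pooled U+ fraction was 61.9%.

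SNHG7, a host gene of small nucleolar RNAs, had 2 adjoining windows on chromosome 9 (minus strand), which can share reads. The window starting at 139622550 held 463 unique and 276 uridylated reads (59.6%, 55.1 to 64.0), with a midpoint 61 nt past the start of the transcript. The window starting at 139622500, 50 nt further along the transcript, held 111 and 47 (42.3%, 33.6 to 51.6). The nearer window thus had the higher U+ fraction, and the intervals did not overlap, although no test was run on reads that the windows can share. Both sequences have 1 near-identical copy elsewhere in the genome (at least 45 nt with at most 2 differences), whereas the other 46 members have none.

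PRANCR, which the table lists under an older clone-based name, had the highest U+ fraction of the set. Of its 250 unique reads, 238 were uridylated (95.2%, 91.8 to 97.2). Its midpoint lay 67 nt upstream of the nearest start of CNOT2, a subunit of the CCR4-NOT deadenylase complex, and 21 nt past its own start. The window overlaps exons of coding transcripts on its own or the other strand, as do 5 other members (CTD-3074O7.5, RP11-638I2.4, CTD-2631K10.1, WAC-AS1 and MATN1-AS1).

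HOTAIRM1, an lncRNA first described in myeloid cells, had a window that held 328 unique and 195 uridylated reads (59.5%, 54.1 to 64.6). It lay 559 nt past the start of its own listed transcript, across the start of the second and last exon. It was the only window of those placed that lay outside a first exon.

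SNAI3-AS1 held 244 unique and 176 uridylated reads (72.1%, 66.2 to 77.4), 230 nt upstream of MVD, an enzyme of cholesterol synthesis. RP11-22P6.3, now ATP2A1-AS1, had 2 windows upstream of ATP2A1, the calcium pump of fast muscle. The window 149 nt from the ATP2A1 start held 222 unique and 136 uridylated reads (61.3%, 54.7 to 67.4). The window 249 nt away held 172 and 93 (54.1%, 46.6 to 61.3). As at SNHG7, the window nearer to the start of the lncRNA had more reads and the higher fraction, but here the intervals overlapped.

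PCAT6, an lncRNA first described in prostate cancer, held 145 unique and 131 uridylated reads (90.3%, 84.4 to 94.2), the second highest fraction. It lay 2510 nt upstream of a start of KDM5B, a histone demethylase, and 114 nt past its own start. CTD-3074O7.5, now DPP3-DT, held 190 and 120 (63.2%, 56.1 to 69.7), and its midpoint lay 191 nt inside the gene of the dipeptidyl peptidase DPP3. RP11-547D24.3, now PRKCZ-DT, held 203 and 114 (56.2%, 49.3 to 62.8), 325 nt upstream of PRKCZ, an atypical protein kinase C. DICER1-AS1 held 231 and 113 (48.9%, 42.5 to 55.3), 209 nt upstream of DICER1, the endonuclease that matures microRNAs. These windows had similar numbers of uridylated reads, and their U+ fractions ranged from mostly uridylated to near 50%.

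The low end of the range held windows of 55 to 253 unique reads. RP11-546B15.1, now VPS39-DT, had the lowest U+ fraction, with 14 of 55 unique reads (25.5%, 15.8 to 38.3), 123 nt upstream of VPS39, a subunit of the vesicle-tethering HOPS complex. AC009005.2, now BSG-AS1, had 30 of 96 (31.2%, 22.9 to 41.1), 404 nt upstream of the membrane protein gene BSG. RP11-379K17.4 had 87 of 215 (40.5%, 34.1 to 47.1), 120 nt upstream of SEC62, a part of the protein translocation machinery of the endoplasmic reticulum. With RP11-541P9.3 (108 of 253, 42.7%, 36.7 to 48.8), these were the 4 windows whose upper limit fell below 50%.

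The other members are given as uridylated over unique reads. FGD5-AS1 had 103 of 190, RP11-486A14.2 82 of 118, CTC-338M12.4 73 of 95, LIPE-AS1 73 of 119, RP11-284M14.1 63 of 98 and RP11-178L8.7 59 of 109. AC004463.6 had 59 of 79, CTD-2588C8.8 59 of 73, RP11-324I22.4 52 of 68, THAP7-AS1 45 of 66, KDM4A-AS1 43 of 82 and CTD-3184A7.4 43 of 66. All of these had a U+ fraction above 50%, from 52.4% at KDM4A-AS1 to 80.8% at CTD-2588C8.8. AF196972.9 and AC007879.5 each had 35 of 45, RP11-624M8.1 34 of 74, TM4SF19-AS1 29 of 39, CTD-3028N15.1 29 of 37 and CTD-2165H16.4 29 of 36. CDKN2B-AS1, also known as ANRIL, had 27 of 44, RP11-379H18.1 26 of 37, LIFR-AS1 26 of 29, RP11-359B12.2 24 of 39 and CBR3-AS1 24 of 33. In these, RP11-624M8.1 was the only one under 50%, at 45.9%. RP5-1103G7.4 had 21 of 30, RP11-638I2.4 21 of 25, LRP4-AS1 20 of 24, RP6-109B7.4 19 of 34, CTD-2631K10.1 19 of 30 and WAC-AS1 19 of 23. MATN1-AS1 had 17 of 25, RP11-138I18.1 13 of 17 and RP1-101K10.6 12 of 21. RP11-138I18.1 is listed although its unique reads are below the minimum of 20 that the authors' methods give. These last windows had wide intervals, and that of RP1-101K10.6 ran from 36.5 to 75.5%.

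The position of each window was taken from GENCODE release 44 mapped to GRCh37. A window was called divergent here if its midpoint lay at most 1000 nt upstream of a protein-coding start on the opposite strand. Of the 48 antisense windows, 38 (79.2%) were divergent, against 206 of all 1533 windows (13.4%). The name of the subtype refers to a coding locus on the opposite strand, so part of this difference may be fixed by the annotation. How large that part is was not tested. The distance also rests on annotated starts, since it was taken to the nearest of all coding starts and capped at 1000 nt. The divergent windows lay at a median of 172.5 nt from the coding start, with quartiles of 137.75 and 244.25 nt and a range of 36 to 597 nt. Of the 38, 29 lay between 100 and 300 nt, 3 were closer and 6 were farther.

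The closest was AC007879.5, 36 nt from the nearest start of CREB1, a transcription factor activated by cyclic AMP signalling. It was followed by THAP7-AS1, 40 nt from the transcriptional repressor gene THAP7, and PRANCR beside CNOT2. The farthest was CBR3-AS1, 597 nt from DOP1B, followed by RP11-624M8.1, 553 nt from HEY2, a transcription factor of the Notch pathway. Genes of many kinds lay beside the windows between them. CTC-338M12.4 was 149 nt from RACK1, a scaffold protein of the ribosome, CTD-2588C8.8 153 nt from the SUMO-activating subunit UBA2, CTD-3028N15.1 185 nt from the splicing factor PRPF39, and RP11-379H18.1 180 nt from HERPUD2.

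LRP4-AS1 lay 116 nt from CKAP5, a microtubule polymerase of the spindle, RP1-101K10.6 lay 161 nt from FBXO5, an inhibitor of the anaphase-promoting complex, and RP11-541P9.3 lay 300 nt from the cyclin CCNG1. RP11-324I22.4 lay 162 nt from the cyclin CCNY, and CDKN2B-AS1 lay 365 nt from CDKN2A, a tumour suppressor locus. FGD5-AS1 lay 165 nt from the nuclear receptor NR2C2, AF196972.9 lay 125 nt from PORCN, which acylates Wnt ligands, and CTD-2165H16.4 lay 252 nt from the deubiquitinase OTULIN. RP5-1103G7.4 lay 321 nt from the transcription factor SOX12, RP11-284M14.1 295 nt from the deubiquitinase USP38, and WAC-AS1 122 nt from WAC. The gene in the symbol of an lncRNA was not always the gene nearest to its window. KDM4A-AS1 and TM4SF19-AS1, for example, lay 223 and 114 nt upstream of ST3GAL3, a sialyltransferase, and of DYNLT2B, a dynein light chain.

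The 10 windows that were not divergent did not form 1 kind. CTD-3074O7.5 and RP11-638I2.4 lay 191 and 190 nt downstream of starts of DPP3 and YY1. The other 8 were farther than 1000 nt from any opposite-strand coding start. They were A1BG-AS1, both SNHG7 windows, PCAT6, AC004463.6, LIPE-AS1, MATN1-AS1 and RP6-109B7.4, the last of them 80799 nt from PPARA. The median U+ fraction was 66.7% in the 38 divergent windows and 65.6% in the other 10, with pooled fractions of 61.2 and 70.5%. A1BG-AS1 held 493 of the 1256 uridylated reads of the 10, and without it the pooled fraction of the other 9 was 64.1%.

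**Figure D2:**
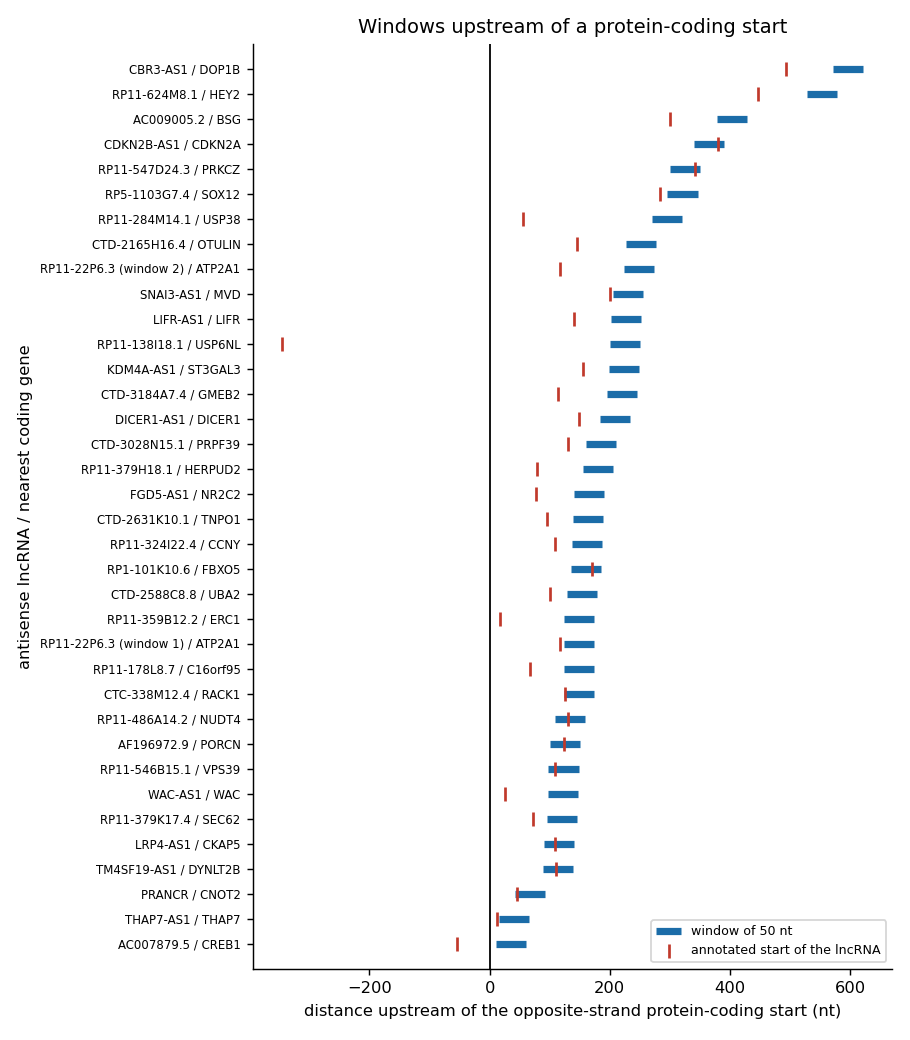
Position of the divergent antisense windows whose own transcript was found, except that of HOTAIRM1 (blue bars of 50 nt), and of the annotated start of their lncRNA (red ticks), as the distance in nt upstream of the opposite-strand coding start at 0. Most windows lie 100 to 300 nt upstream, just past the start of the lncRNA. Measured from the nearest coding start, RP11-138I18.1 has its start 345 nt inside the coding gene. That of AC007879.5 lies 54 nt inside by the same measure.

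The windows lay at the beginning of their own transcripts. For 47 of the 48 the listed transcript was found, and in 43 of these (91.5%) the midpoint lay within 150 nt of its start, against 80.2% of all windows with a transcript. The median distance was 64 nt, with quartiles of 27.5 and 105 nt and a range from 16 nt before the start (RP11-547D24.3) to 571 nt past it (RP11-138I18.1). The 4 beyond 150 nt were HOTAIRM1, RP11-284M14.1, AC004463.6 and RP11-138I18.1. The other lncRNA windows lay near their start in 56 of 86 cases (65.1%) and mRNA windows in 780 of 990 (78.8%), at medians of 64.5 and 53 nt. Of the 47 antisense windows, 46 lay in the first exon, as did 1127 of all 1299 windows with a transcript. Wholly within an exon lay 29, and 11 ran out past the start. The shares of these classes over all windows are not given here, so the counts cannot be called low or high.

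In the 37 divergent windows with a known start, the lncRNA began a median of 113 nt upstream of the coding gene, with quartiles of 73 and 148 nt. In 34 of them the lncRNA start lay upstream of the nearest coding start. In the other 3, RP11-138I18.1 and AC007879.5 among them, it lay downstream of the nearest start of the coding gene. The distance of a window past its own start and its U+ fraction had a Spearman correlation of -0.10 over 47 windows, which is given as a description and without a test.

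There were 6 windows that ran from the first exon into the first intron of the listed transcript, and in all 6 the intron began with GT. The share of such windows over the whole table is not given here. The window crosses the boundary, but the table does not show whether a single read did. The 5 that overlap no coding exon are printed with these letters in capitals, to show where exon 1 ends. They are LIPE-AS1 (chr19:42901350-42901399, plus strand), AC007879.5 (chr2:208394400-208394449, minus strand), AC009005.2 (chr19:572100-572149, minus strand), RP11-359B12.2 (chr12:1100200-1100249, minus strand) and CBR3-AS1 (chr21:37528500-37528549, minus strand).
LIPE-AS1: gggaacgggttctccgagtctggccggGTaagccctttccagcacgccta
AC007879.5: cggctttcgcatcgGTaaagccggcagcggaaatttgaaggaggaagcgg
AC009005.2: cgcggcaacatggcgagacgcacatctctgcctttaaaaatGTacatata
RP11-359B12.2: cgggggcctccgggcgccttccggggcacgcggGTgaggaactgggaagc
CBR3-AS1: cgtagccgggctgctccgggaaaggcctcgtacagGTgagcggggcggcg

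The share of intron in these windows ran from 8 nt in RP11-638I2.4 to 36 nt in AC007879.5. Their U+ fractions ran from 31.2 to 84.0%. RP11-638I2.4 had 84.0% (65.3 to 93.6), AC007879.5 77.8% (63.7 to 87.5) and CBR3-AS1 72.7% (55.8 to 84.9). RP11-359B12.2 had 61.5% (45.9 to 75.1), LIPE-AS1 61.3% (52.4 to 69.6) and AC009005.2 31.2%, the second lowest of all members.

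Windows on both strands of a promoter were rare in the table. An mRNA window on the opposite strand, with its start within 1000 nt, was present for 2 of the 48 antisense windows (4.17%), for 1 of the 93 other lncRNA windows (1.08%) and for 18 of all 1533 windows (1.17%). Of the 37 coding genes upstream of which an antisense window lay, 3 had any mRNA window in the table. The third was TNPO1, a nuclear import receptor, whose window (262 of 473 reads uridylated, 55.4%) lay 31700 nt from that of CTD-2631K10.1. Since the table lists only windows that had passed the authors' selection, a coding start without a listed window is not shown to lack uridylated reads. The share of all coding genes that had an mRNA window was not computed, so 3 of 37 cannot be called low or high.

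At CREB1, the antisense window of AC007879.5 had 35 of 45 reads uridylated (77.8%, 63.7 to 87.5). The CREB1 window (chr2:208394650-208394699, plus strand), 250 nt away and with its midpoint 11 nt past the start of the listed CREB1 transcript, had 23 of 36 (63.9%, 47.6 to 77.5). The antisense window lay 239 nt upstream of the start of that transcript, but 36 nt upstream of the nearest CREB1 start. The difference of 13.9 percentage points had an interval of -5.69 to 32.9, and did not exceed counting error (two-sided Fisher's exact test, p = 0.217, Benjamini-Hochberg adjusted p = 0.217 over 2 pairs).

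At LIFR, the gene of the receptor for leukaemia inhibitory factor, the LIFR-AS1 window had 26 of 29 reads uridylated (89.7%, 73.6 to 96.4). The LIFR window (chr5:38556650-38556699, minus strand), 300 nt away and 73 nt past its start, had 30 of 46 (65.2%, 50.8 to 77.3). The difference was 24.4 points, and its interval of 4.34 to 40.4 did not include 0. The test gave p = 0.0277, and adjusted p = 0.0554 over the 2 pairs (two-sided Fisher's exact test), so the difference did not pass a threshold of 0.05 after adjustment. Both pairs compare the pooled reads of single windows, and the spread between libraries is not part of either test.

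Compared with the other lncRNA subtypes of the table, the antisense windows had a similar U+ fraction. The median was 66.6% in the 48 antisense windows and 69.6% in the 93 others, with quartiles of 51.7 and 77.5% in the latter, and 70.2% over all 1533 windows. By subtype it was 67.3% in 26 lincRNA windows, 70.0% in 36 windows of processed transcripts, 72.2% in 19 of retained introns, 73.8% in 8 of nonsense-mediated decay transcripts and 51.9% in 3 sense-overlapping windows. The single lncRNA window with the subtype snRNA had 32.3%, below all of these medians, although single windows of other subtypes were lower. The ranges overlapped throughout, since antisense windows spanned 25.5 to 95.2% and lincRNA windows 17.7 to 91.4%. The antisense windows had neither the lowest nor the highest value among the lncRNAs.

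**Figure D3:**
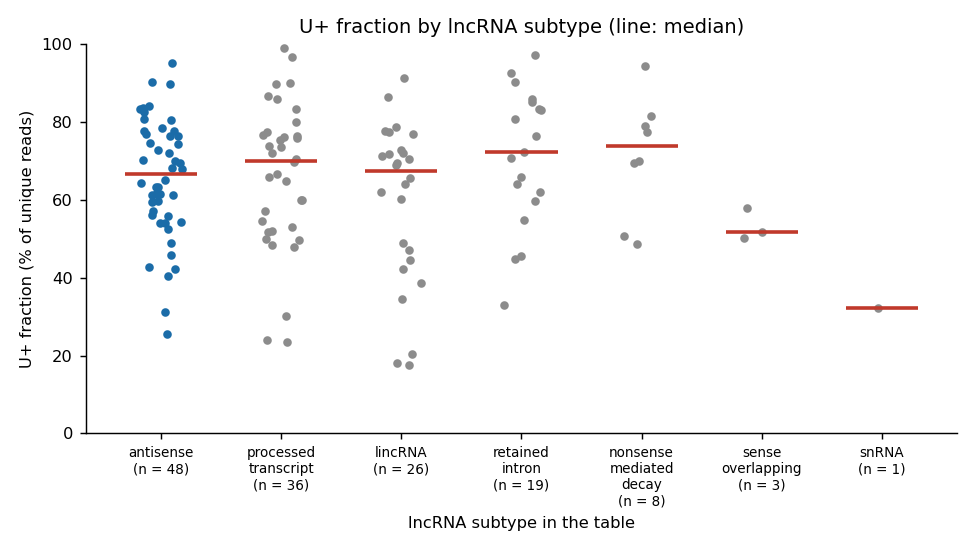
U+ fraction (y axis, percent of unique reads) of every lncRNA window by the subtype given in the table, with a red line at each median and points spread sideways only for legibility. The 48 antisense windows (blue) range from 25.5 to 95.2% around 66.6%, within the spread of the other subtypes (grey).

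Pooled over reads the subtypes differed more than over windows, because single windows dominated some. The pooled fraction was 64.2% for antisense and 63.5% for all other lncRNA windows, but 44.1% for lincRNA and 90.6% for retained introns, where 1 window held 5099 of 5876 uridylated reads. The largest antisense window held 493 of 3604.

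The subtypes also differed in position, in the first measure perhaps partly through the annotation itself. Divergent windows made up 79.2% of antisense windows but 34.6% of lincRNA (9 of 26), 13.9% of processed transcript (5 of 36), 10.5% of retained intron (2 of 19) and 11.8% of mRNA windows (134 of 1136). Among the divergent windows of other classes, the median distance was 192 nt for lincRNA and 222 nt for mRNA, beside 172.5 nt for antisense. The share within 150 nt of the own start was 68.0% for lincRNA, 77.4% for processed transcripts and 42.1% for retained introns, all below the 91.5% of the antisense windows.

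**Figure D4:**
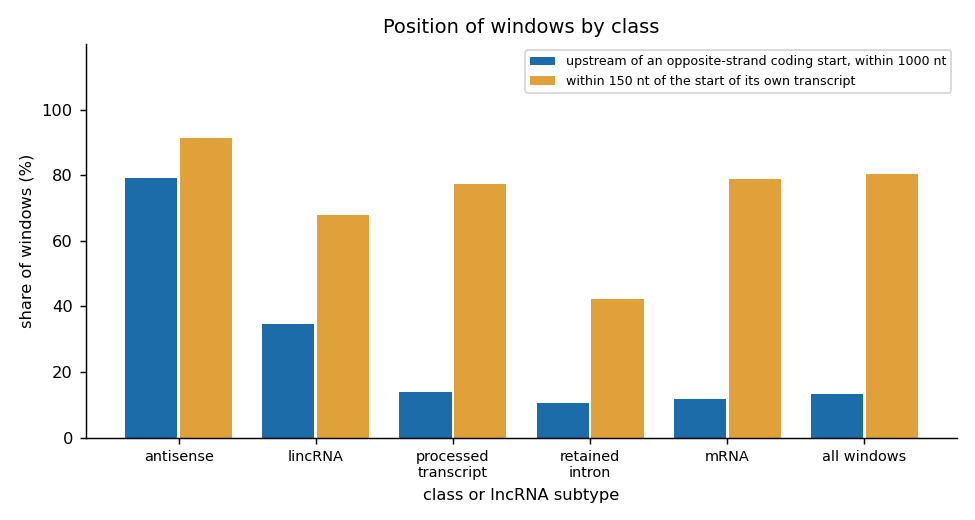
Share of windows (y axis, percent) that lie at most 1000 nt upstream of an opposite-strand coding start (blue) and within 150 nt of the start of their own transcript (orange, of windows whose transcript was found), by class. The antisense windows have the highest bar in both, 79.2 and 91.5%, against 13.4 and 80.2% over all windows.

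The U+ fraction was lower in windows with more reads, in the antisense windows as in the table. Among antisense windows with under 50 unique reads the median was 74.4% (19 windows), between 50 and 150 it was 64.7% (16), and from 150 upward it was 59.5% (13). The medians over all windows in the same ranges were 76.2, 69.2 and 58.4%, and those of the other lncRNA windows 72.2, 69.6 and 51.9%. The Spearman correlation of unique reads and U+ fraction over the 48 antisense windows was -0.35, a description without a test. Windows had been selected by a posterior probability that depends on their read number, and its part in this trend was not tested. PRANCR, PCAT6 and A1BG-AS1, each with over 100 unique reads and a fraction above 80%, lay off the trend.

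**Figure D5:**
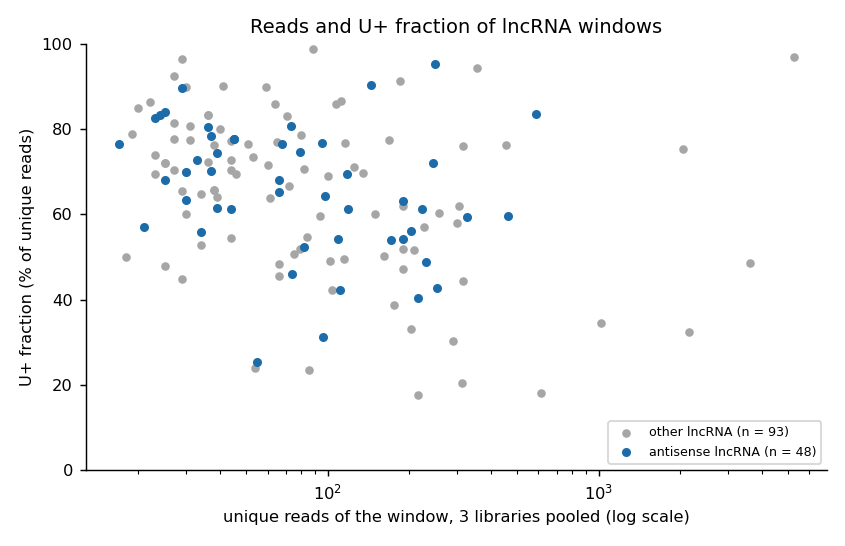
U+ fraction (y axis, percent) against unique reads (x axis, log scale, 3 libraries pooled) for the 48 antisense (blue) and 93 other lncRNA windows (grey). Antisense windows stop at 590 unique reads, and the windows with few reads have the higher fractions, with a median of 74.4% under 50 reads and 59.5% from 150 upward.

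The windows were rich in G and C. The GC content had a median of 70% (quartiles 64 and 76, range 46 to 82%) against 72% over all windows and 74% over mRNA windows, and a window held a median of 5 CpG dinucleotides, as over all windows. The predicted minimum free energy of folding of the 50 nt was -17.8 kcal/mol at the median, with quartiles of -19.95 and -15.2, beside -18.8 for mRNA windows and -17.3 for all. By composition and predicted folding, then, the antisense windows were close to the table as a whole. The most stable reached -31 and the least stable -8.5 kcal/mol.

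Short motifs were counted on both strands of the window and the 50 nt downstream of it on the strand of the lncRNA. An encoded run of 4 T (TTTT) was found on the strand of the lncRNA in 5 of 48 (10.4%) against 17.9% of all windows, and on the opposite strand in 11 (22.9%) against 18.9%. Inside the 50 nt of the window itself it was found in 3 members, against 8.61% of all windows. GGTAAG, the letters at many 5′ splice sites, was found in 1 (LIPE-AS1, 2.08%) against 2.09%, and on the opposite strand in 1 against 0.457%. AATAAA, the common polyadenylation signal, was found in 2 (RP11-22P6.3 and AC009005.2, 4.17%) against 4.11%, and on the opposite strand in 0 against 1.83%. A run of 3 G (GGG), which can overlap GGTAAG, was found in 43 (89.6%) against 85.4%, and on the opposite strand in 42 (87.5%) against 84.9%. The shares on the strand of the lncRNA lay near those of the table except for the run of T, whose share was close to the 11.5% of mRNA windows. No test was run on these counts.

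The 3 windows with an encoded run of T are printed with the run in capitals, because encoded T is what an untemplated tail has to be told apart from. They are DICER1-AS1 (chr14:95624050-95624099, plus strand), the farther window of RP11-22P6.3 (chr16:28891100-28891149, minus strand) and RP11-624M8.1 (chr6:126070200-126070249, minus strand). Their U+ fractions were 48.9, 54.1 and 45.9%.
DICER1-AS1: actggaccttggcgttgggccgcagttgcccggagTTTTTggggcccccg
RP11-22P6.3: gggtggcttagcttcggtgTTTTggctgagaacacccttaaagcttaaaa
RP11-624M8.1: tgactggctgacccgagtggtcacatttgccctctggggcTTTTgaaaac

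Names in the table are those of an older annotation. In GENCODE 44 the symbol had changed for 28 of the windows, and 31 carry a current symbol that ends in AS with a number or in DT, for divergent transcript. Among the 9 that end in DT are USP38-DT (RP11-284M14.1), PORCN-DT (AF196972.9), PRPF39-DT (CTD-3028N15.1), OTULIN-DT (CTD-2165H16.4) and TNPO1-DT (CTD-2631K10.1). The members lay on 19 chromosomes, 20 of them on the plus strand.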

How the data were processed

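CLIP-seq reads of 3 libraries of HEK293 cells had been mapped by the authors to GRCh37/hg19 with Segemehl, remapped after trimming of 3′ T runs, and counted in windows of 50 nt. By the authors' methods, windows under 20 reads were dropped, and the rest kept at a posterior of at least 0.95 for a uridylation frequency above 25%. The listed counts do not all meet these limits, since over all windows they reach down to 7 unique reads and a U+ fraction of 0.719%. Each window took 1 annotation, with mRNA before lncRNA. The deposited values are raw counts, summed over the libraries and not normalized.

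U+ fractions have 95% Wilson intervals. Differences between the reads of paired windows have Newcombe intervals and a two-sided Fisher's exact test (scipy 1.17.1), adjusted by Benjamini-Hochberg over the 2 pairs. The scripts were tested on simulated data. Positions came from GENCODE 44 on GRCh37, with window starts read as 1-based, and distances run from the midpoint. Whether they count from 0 is not stated in the sources used here. Copies were searched with blastn 2.17.0 and folding was predicted with RNAfold 2.7.2. All antisense genes were named. Full statistics went to the 10 windows with the most uridylated reads, the 3 highest and 3 lowest fractions, windows with an opposite-strand partner and genes with several windows. Members and lists were chosen with earlier results of these data known. Distances to own starts, exon boundaries, copies and folding were added after values had been seen. The coding neighbour of 1 window is not reported here.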

Additional observations from a re-analysis of the deposited data

How the results depend on the processing

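Of 31 alternatives computed, 23 left a value within its interval or within 1.5 times, with its call kept. With at least 100 unique reads, 18 antisense windows remained, the median U+ fraction was 59.5% for antisense and 57.5% for other lncRNA windows, and 10 windows had a lower limit above 50%. That was 55.6% of them, against 59.3% of all windows at that depth. With at least 50 unique reads, 29 antisense windows remained, of which 17 had a lower limit above 50%, and the other lncRNA median was 60.2%. The difference of medians, antisense minus other lncRNA, was -2.99 points over all windows, 1.99 with at least 100 and 1.11 with at least 50 unique reads, so its sign depends on the minimum. Without the A1BG-AS1 window the pooled fraction was 61.9%, and that of the windows not divergent was 64.1%, an alternative chosen after seeing the data. For LIFR-AS1 against LIFR, the difference of 24.4 points passed by its Newcombe interval and missed by the adjusted test. The count with an opposite-strand mRNA window was 2 under every distance and partner setting tried. The divergent count ran from 36 to 38, and the median distance was 215 nt with 1 start per coding gene.

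No paired analysis was possible because the counts were pooled over the libraries and there was a single group. Leaving out a library could not be done for the same reason. Unique reads set the precision: the median interval was 20.5 points wide.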
